A study of Homo sapiens with 6 samples.

Results

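The genes RAP1A, RAP1B, ARAF, BRAF, KSR1, MAP2K1, MAP2K2 and MAPK3, components of the RAP1, RAF, MEK and ERK cascade, were followed in HEK293 cells transfected for a fusion of GFP with PKI1-24 or with the control inPKI1-24. They were taken from the expression table by symbol and are 8 of its 30960 genes. The rule sets no threshold on measured values, but the set was proposed with earlier results of these data known. HEK293 is a human embryonic kidney cell line. The PKI group held 3 libraries, A, B and C, of cells transfected with the plasmid for the GFP fusion of PKI1-24, and the inPKI group held 3 libraries of cells transfected with the plasmid for the GFP fusion of inPKI1-24. In both groups 158 ng of plasmid per square centimetre was given with Lipofectamine, and RNA was taken at 48 h. Cultures of both groups therefore received a GFP plasmid and the transfection reagent. The series' design text calls the cells transduced where its protocol calls them transfected. The promoter of the plasmids and the share of cells that took them up are not given in the sources used here. No label says that the libraries of a group came from separate cultures, so a p-value here measures the spread among libraries, which may be technical.

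RAP1A and RAP1B are small GTPases that exchange factors load with GTP and GTPase activating proteins switch off, and they are known for controlling cell adhesion and for binding RAF kinases. RAF kinases phosphorylate the MEK kinases, which phosphorylate the ERK kinases, and scaffolds such as KSR1 hold these enzymes together. PKI is a small protein that binds the catalytic subunit of the cAMP-dependent kinase PKA and blocks it, and PKA is known to phosphorylate RAP1. The cascade acts through phosphorylation and GTP loading, and RNA levels measure neither.

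Values are CPM, read counts scaled by the authors to library size, and 17244715 to 23589438 reads per library could be recovered from them. PKIA, which encodes a PKI protein and checks the labels, averaged 43.9 ± 1.96 CPM in PKI and 9.68 ± 1.46 CPM in inPKI (SD, n = 3 each), with plasmid and cellular reads not separated. All 8 genes chosen as markers of HEK293 were detected, and their summed level ran over 884 to 1003 CPM in PKI, against 993 to 1019 CPM in inPKI. Defining markers of other cells were at or near 0 for leukocytes (CD3E at 0 in all 6 libraries), fibroblasts (DCN at 0 in all 6) and hepatocytes (ALB at most 0.156 CPM), while the 3 fibroblast markers together reached 17.0 to 20.4 CPM in PKI and 16.4 to 18.4 CPM in inPKI through COL1A1. The 3 keratinocyte markers summed to 14.9 to 17.4 CPM in PKI and 14.9 to 39.3 CPM in inPKI, the highest value belonging to inPKI C, where KRT5 stood at 26.5 CPM. PKI C had the fewest reads, and it was the lowest or the highest of the 6 libraries in 58.7% of all genes tested, against 26.1% to 32.6% for each other library.

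None of the 8 cascade genes passed the test between PKI and inPKI. The test was limma on log2(CPM + 1), with Benjamini-Hochberg adjustment over the 14275 genes that had at least 1 CPM in at least 3 libraries, and a gene was called at an adjusted p below 0.05. All 8 cascade genes entered it. Of all genes tested, 18 were called, which is 0.126%, with 14 higher in PKI (0.0981%) and 4 lower (0.0280%). Equal-sum rescaling of the libraries gave 10 higher in PKI and 1 lower, sample weights 108 higher and 36 lower, and DESeq2 on the recovered reads 115 higher and 84 lower. At an unadjusted p below 0.05 stood 1 of the 8 cascade genes, BRAF, which was higher in PKI, beside 13.7% of all genes tested in either direction, 7.53% in the higher and 6.16% in the lower direction. The groups did not overlap in 1 of the 8, KSR1, beside 19.7% of all genes tested. On the recovered reads, edgeR and DESeq2 also called 0 of the 8, where they called 0.0771% and 1.39% of all genes tested, and each again gave BRAF alone an unadjusted p below 0.05. The median log2 change of the 8 genes was -0.041, that of all genes tested -0.00743, with 3 of the 8 above 0 and 5 below. With bulk RNA, fewer cells expressing a gene and less RNA per cell cannot be told apart.

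**Figure D1:**
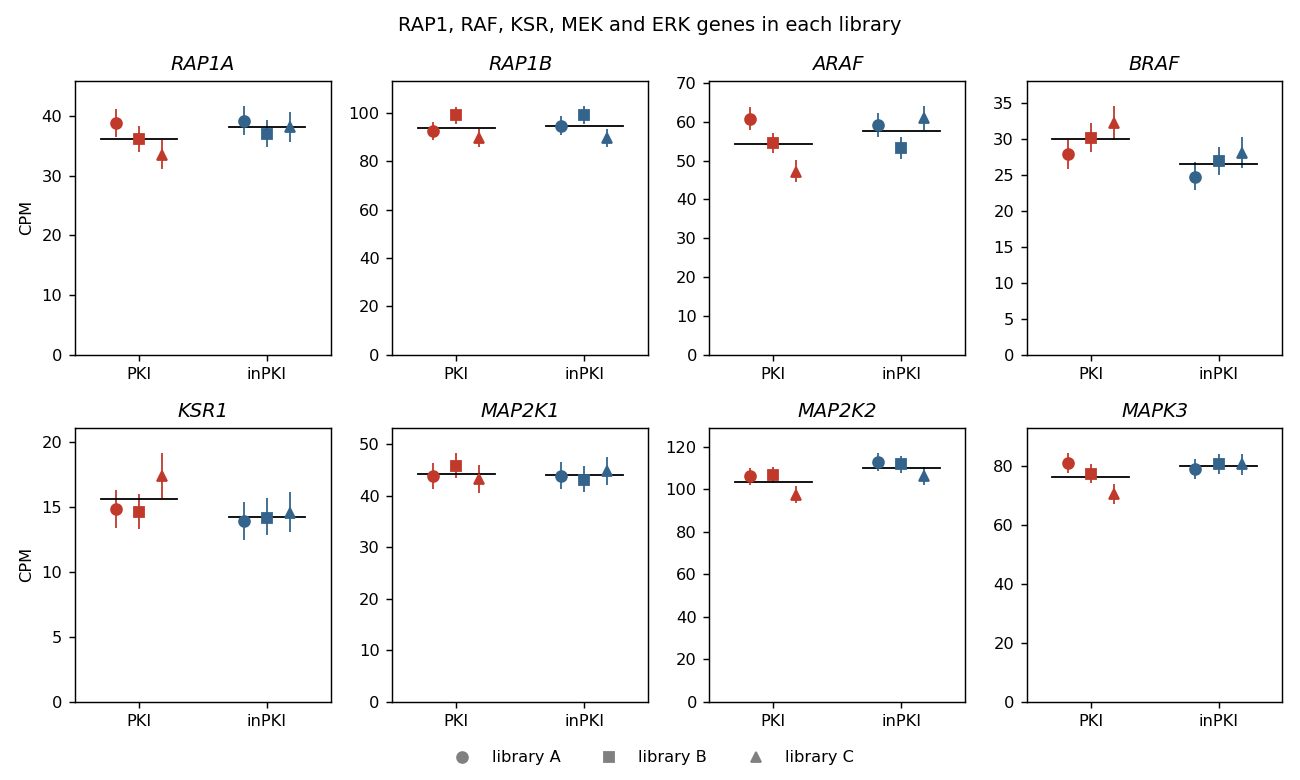
CPM of each cascade gene (vertical axes, each starting at 0) in the 3 PKI libraries, left and red, and the 3 inPKI libraries, right and blue. Symbols mark libraries A, B and C, vertical lines are exact Poisson 95% intervals of counting error, and horizontal bars are group means. Only KSR1 has all PKI points above all inPKI points, and PKI C is the lowest point for RAP1A, ARAF, MAP2K2 and MAPK3.

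Neither RAP1 GTPase gene passed the test. RAP1A (ENSG00000116473.14; chromosome 1, 111542218 to 111716691, GRCh38, plus strand) stood at 38.8, 36.1 and 33.6 CPM in PKI A, B and C, against 39.2, 37.1 and 38.1 CPM in inPKI A, B and C. PKI A lay within the inPKI range and PKI B and C lay below it, so the groups overlapped. RAP1A averaged 36.2 ± 2.63 CPM in PKI and 38.2 ± 1.09 CPM in inPKI (SD, n = 3 each), and on the log2(CPM + 1) scale PKI differed by -0.08 ± 0.064 (SE), with a 95% interval of -0.21 to 0.06 and a limma adjusted p of 0.614. The RAP1A change was -0.0253 without PKI C and -0.128 without PKI A. RAP1B, which encodes a closely related GTPase (ENSG00000127314.17; chromosome 12, 68610839 to 68671901, plus strand), stood at 92.6, 99.0 and 89.5 CPM in PKI A, B and C, against 94.7, 99.1 and 89.5 CPM in inPKI A, B and C. The RAP1B libraries of both groups covered nearly the same range, with B the highest and C the lowest in each. RAP1B averaged 93.7 ± 4.82 CPM in PKI and 94.4 ± 4.82 CPM in inPKI (SD, n = 3 each). Its log2 change was -0.01 ± 0.058 (SE), with a 95% interval of -0.13 to 0.11 and a limma adjusted p of 0.95. As a fold, that interval runs from 0.911 to 1.08. The sign of the RAP1B change turned with PKI C left out, to 0.02, and with inPKI B left out, also to 0.02. The pseudogenes RAP1AP, RAP1BP1 and RAP1BP3 held at most 5 reads in any library.

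Because CREB, the factor that PKA phosphorylates, binds the cAMP response element, the 250 bases before each gene's start site were searched for the full palindrome TGACGTCA and for its pentamer TGACG on either strand (CGTCA on the printed one). RefSeq start sites on GRCh38.p14 gave a window for 8 of 8 cascade genes, and 7 of these lay within 300 bases of the 5' end in GENCODE 29. The RefSeq start site of BRAF lay 660 bases inside the gene, so its window was not counted. The full palindrome occurred in 1 of these 7 windows, that of RAP1B, and in 1.65% of the 35116 windows of all genes. The pentamer, which the full palindrome contains on both strands, occurred in 3 of 7, those of RAP1B, ARAF and MAP2K1, and in 21.2% of all windows. The RAP1B window is printed because it alone holds the full element, and the MAP2K1 window because it holds the pentamer on both strands without the full element. RefSeq supplied both, at chr12:68610649-68610898 and chr15:66386662-66386911 on the plus strand, with the matches in capitals and the start site following the last base.
RAP1B: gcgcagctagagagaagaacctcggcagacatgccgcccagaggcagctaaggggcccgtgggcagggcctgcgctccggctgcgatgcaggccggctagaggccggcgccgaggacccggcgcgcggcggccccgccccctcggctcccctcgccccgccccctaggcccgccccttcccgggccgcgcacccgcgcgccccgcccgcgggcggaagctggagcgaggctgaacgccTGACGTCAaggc
MAP2K1: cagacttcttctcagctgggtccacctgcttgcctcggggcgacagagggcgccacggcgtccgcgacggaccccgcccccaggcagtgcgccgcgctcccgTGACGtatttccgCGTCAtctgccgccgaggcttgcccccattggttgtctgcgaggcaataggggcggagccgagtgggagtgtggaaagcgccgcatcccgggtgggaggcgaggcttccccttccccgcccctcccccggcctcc
The element in RAP1B began 12 bases before the start site, and the pentamers in MAP2K1 began 148 and 135 bases before it. Neither gene was called, and RAP1B and MAP2K1 had the smallest log2 changes of the 8. With a trend with transcript length removed, RAP1B had a log2 change of -0.163, the largest in size of the 8. Of 10000 tested genes with a window, 354 held the full element in any of their windows, without the limit of 300 bases. Of these 354, 2 were called higher and 0 lower, beside 0.0981% and 0.0280% of all genes tested. Their median log2 change was -0.0108, and 11.6% had an unadjusted p below 0.05, beside the 13.7% of all genes tested. A match of letters is not a measured binding site.

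The RAF kinase genes had log2 changes of opposite sign, and neither passed the test. ARAF (ENSG00000078061.12; chromosome X, 47561100 to 47571920, plus strand) encodes the RAF kinase with the weakest activity toward MEK. ARAF stood at 60.8, 54.5 and 47.2 CPM in PKI A, B and C, against 59.1, 53.2 and 60.9 CPM in inPKI A, B and C. PKI A and B lay within the inPKI range, and PKI C lay below every other library, its counting interval of 44.4 to 50.1 CPM ending below the lowest inPKI value. ARAF averaged 54.2 ± 6.80 CPM in PKI and 57.8 ± 4.04 CPM in inPKI (SD, n = 3 each), and the log2 change came to -0.10 ± 0.080 (SE) with a 95% interval of -0.27 to 0.08 and a limma adjusted p of 0.615. Leaving out PKI C gave an ARAF change of -0.00202 and leaving out PKI A one of -0.181. It was -0.153 with inPKI B left out and -0.0568 with inPKI C left out. With the transcript length trend removed it was -0.0578.

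BRAF (ENSG00000157764.12; chromosome 7, 140719327 to 140924928, minus strand) encodes the most active RAF kinase, which cAMP is known to engage through RAP1 in some neuronal and endocrine cells. BRAF stood at 27.9, 30.2 and 32.2 CPM in PKI A, B and C, against 24.8, 26.9 and 28.0 CPM in inPKI A, B and C. PKI B and C lay above every inPKI library, and PKI A lay just below inPKI C, so the groups overlapped by that 1 pair. BRAF averaged 30.1 ± 2.18 CPM in PKI and 26.6 ± 1.66 CPM in inPKI (SD, n = 3 each), 13.2% higher. Its log2 change was 0.17 ± 0.071 (SE), with a 95% interval of 0.02 to 0.32 and unadjusted p-values of 0.0294 with limma, 0.0330 with edgeR and 0.0414 with DESeq2. Adjusted over all genes tested, these were 0.315, 0.279 and 0.391, and 1331 of the 14275 genes, BRAF included, had a limma p as small or smaller. The change was 0.0684 once a trend with transcript length was removed, which was added as an alternative after seeing the data. BRAF shares 1239 exon bases with NDUFB2 on the opposite strand, and the strand setting of the authors' counting is not given in the sources used here. NDUFB2, a subunit of mitochondrial complex I, averaged 37.7 ± 3.17 CPM in PKI and 41.0 ± 2.43 CPM in inPKI, with a log2 change of -0.12 and a limma adjusted p of 0.459.

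The scaffold gene KSR1 (ENSG00000141068.13; chromosome 17, 27456470 to 27626438, plus strand) had the fewest reads of the 8. KSR1 is related to the RAF kinases and holds RAF, MEK and ERK together. KSR1 stood at 14.8, 14.6 and 17.4 CPM in PKI A, B and C, against 13.9, 14.2 and 14.6 CPM in inPKI A, B and C. The PKI libraries all exceeded the inPKI libraries, but PKI B and inPKI C differed by less than 0.1 CPM. The values rested on 352 to 439 reads per library, and only PKI C, with a counting interval of 15.7 to 19.2 CPM, cleared every inPKI value by more than counting error. KSR1 averaged 15.6 ± 1.54 CPM in PKI and 14.2 ± 0.338 CPM in inPKI (SD, n = 3 each), and the log2 change came to 0.12 ± 0.082 (SE) with a 95% interval of -0.05 to 0.30 and a limma adjusted p of 0.525. The change was 0.0467 without PKI C and 0.059 with the transcript length trend removed. Genes that overlap KSR1 exons had at most a fraction of 1 CPM on average.

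The MEK genes encode the kinases that phosphorylate ERK. MAP2K1, for MEK1 (ENSG00000169032.9; chromosome 15, 66386817 to 66492312, plus strand), stood at 43.9, 45.9 and 43.3 CPM in PKI A, B and C, against 44.0, 43.2 and 44.8 CPM in inPKI A, B and C. PKI A and C lay within the inPKI range and PKI B above it. MAP2K1 averaged 44.3 ± 1.36 CPM in PKI and 44.0 ± 0.828 CPM in inPKI (SD, n = 3 each), and its log2 change was 0.01 ± 0.055 (SE), with a 95% interval of -0.11 to 0.13 and a limma adjusted p of 0.952. The sign of the MAP2K1 change turned with PKI B left out, to -0.0136, and with inPKI B left out, to -0.00256. MAP2K2, for MEK2 (ENSG00000126934.13; chromosome 19, 4090321 to 4124129, minus strand), stood at 106.1, 106.7 and 97.4 CPM in PKI A, B and C, against 112.9, 111.8 and 106.1 CPM in inPKI A, B and C. MAP2K2 was below inPKI A and B in every PKI library, and PKI B lay above inPKI C. It averaged 103.4 ± 5.19 CPM in PKI and 110.3 ± 3.66 CPM in inPKI (SD, n = 3 each), and the log2 change came to -0.09 ± 0.055 (SE) with a 95% interval of -0.21 to 0.03 and a limma adjusted p of 0.471. Without PKI C the MAP2K2 change was -0.0509. MAP2K1 shares 216 exon bases with SNAPC5 on the opposite strand, whose level averaged 6.95 ± 0.157 CPM in PKI and 8.04 ± 0.807 CPM in inPKI.

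MAPK3 encodes ERK1, the kinase at the end of the cascade (ENSG00000102882.11; chromosome 16, 30114105 to 30123506, minus strand). MAPK3 stood at 80.9, 77.4 and 70.4 CPM in PKI A, B and C, against 78.8, 80.6 and 80.5 CPM in inPKI A, B and C. PKI A was the highest of all 6 libraries and PKI C the lowest, while the inPKI libraries lay within counting error of each other. MAPK3 averaged 76.2 ± 5.32 CPM in PKI and 80.0 ± 0.995 CPM in inPKI (SD, n = 3 each), and the log2 change came to -0.07 ± 0.058 (SE) with a 95% interval of -0.19 to 0.05 and a limma adjusted p of 0.609. The MAPK3 change was -0.0155 without PKI C, -0.114 without PKI A and -0.035 with the transcript length trend removed.

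**Figure D2:**
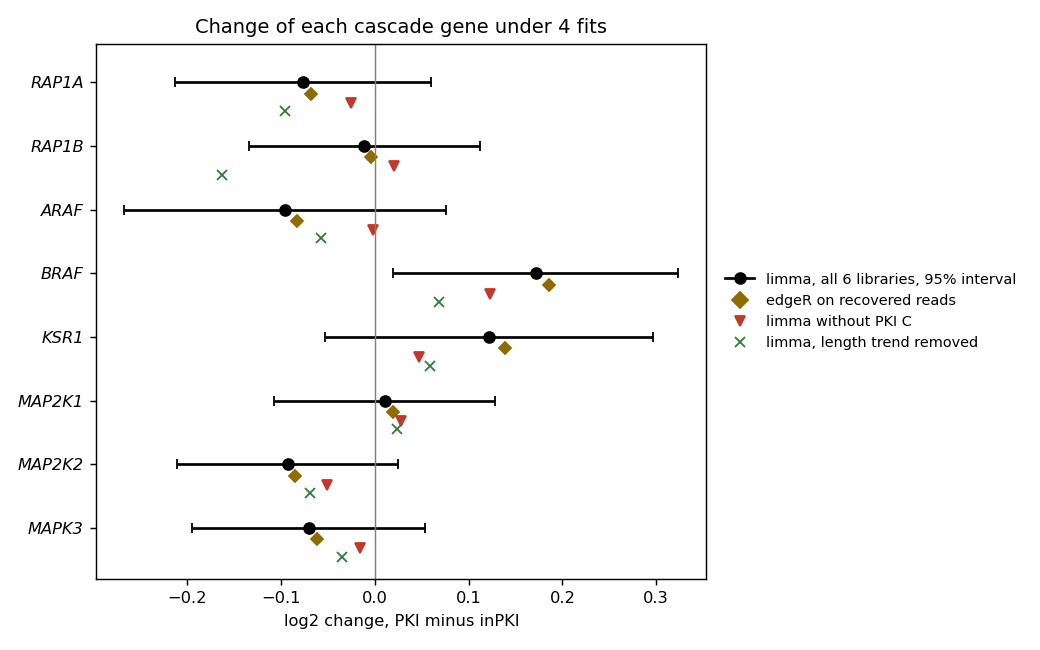
Log2 change, PKI minus inPKI (horizontal axis), for the 8 cascade genes. Circles and bars give limma with its 95% interval, diamonds edgeR on the recovered reads, triangles limma without PKI C, and crosses limma after removal of the transcript length trend. BRAF alone has an interval that lies above 0, from 0.02 to 0.32, before adjustment over all genes.

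**Figure D3:**
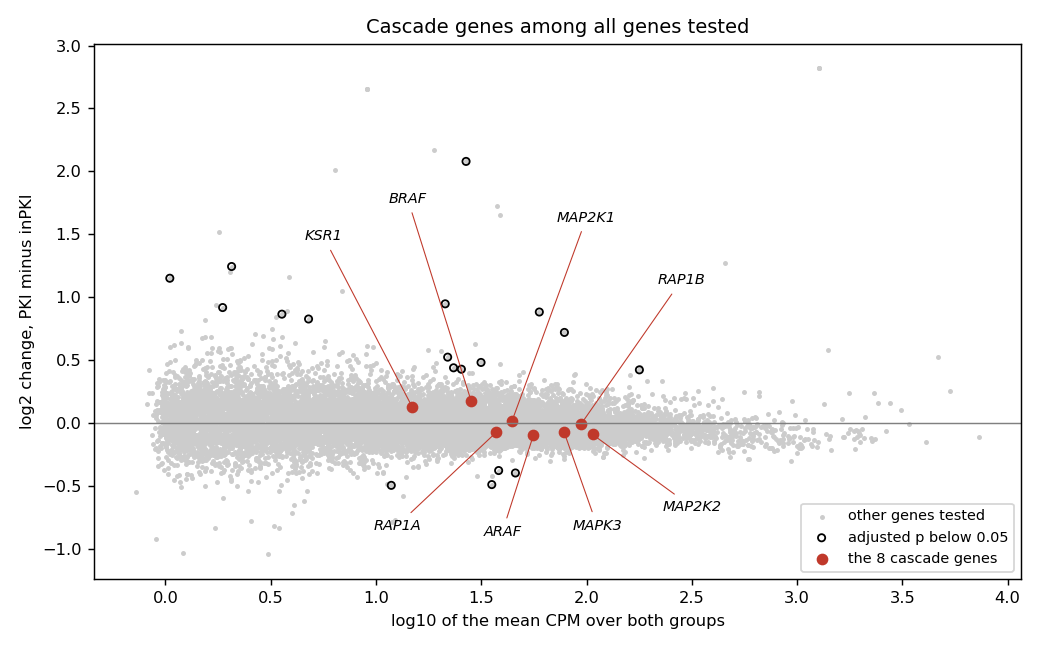
Log2 change, PKI minus inPKI (vertical axis), against the log10 of the mean CPM (horizontal axis) for the 14275 genes tested, shown as grey points. Open circles mark the 18 genes at an adjusted p below 0.05, and red points are the 8 cascade genes, which lie between -0.10 and 0.17.

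Set per length, the MEK2 and ERK1 genes had the highest levels and the BRAF and KSR1 genes the lowest. Divided by the longest annotated transcript, MAP2K2 came first with 35.3 CPM per kb in PKI (33.3 to 36.5 over the 3 libraries) and 37.7 CPM per kb in inPKI (36.3 to 38.6). The values that follow are means ± SD (n = 3 each). MAPK3 followed with 29.7 ± 2.07 CPM per kb in PKI and 31.2 ± 0.388 CPM per kb in inPKI. ARAF stood at 21.6 ± 2.72 CPM per kb in PKI and 23.1 ± 1.61 CPM per kb in inPKI, and MAP2K1 at 13.0 ± 0.398 CPM per kb in PKI and 12.9 ± 0.243 CPM per kb in inPKI. RAP1A had 7.20 ± 0.524 CPM per kb in PKI and 7.59 ± 0.217 CPM per kb in inPKI. RAP1B had 6.97 ± 0.358 CPM per kb in PKI and 7.03 ± 0.359 CPM per kb in inPKI, and the PKI libraries of this pair overlapped. BRAF had 3.14 ± 0.227 CPM per kb in PKI and 2.77 ± 0.174 CPM per kb in inPKI, and KSR1 2.15 ± 0.212 CPM per kb in PKI and 1.96 ± 0.0466 CPM per kb in inPKI. On this scale no other neighbours in the order had overlapping libraries within a group. Divided by the union of all exons, MAPK3 stood above MAP2K2, at 20.8 against 19.7 CPM per kb in PKI, with overlapping libraries, and BRAF and KSR1 were both at 1.28 CPM per kb in PKI. The order of those neighbours thus depended on the length used, and the transcripts used by these cells were not measured.

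Shares within pairs of related genes do not depend on the scaling between libraries. They can depend on a trend with transcript length, and shares with that trend removed were not computed. BRAF made up 31.4%, 35.6% and 40.6% of the summed CPM of BRAF and ARAF in PKI A, B and C, against 29.5%, 33.6% and 31.5% in inPKI A, B and C. PKI B and C lay above every inPKI library and PKI A did not. The share averaged 35.9 ± 4.57% in PKI and 31.5 ± 2.04% in inPKI (SD, n = 3 each), a difference of 4.32 percentage points with an exact permutation p of 0.3 (2-sided, 0.45 adjusted over 3 pairs). The difference was 1.98 points without PKI C and 6.54 points without PKI A. MAP2K1 made up 29.3%, 30.1% and 30.8% of the MEK pair in PKI A, B and C, against 28.0%, 27.9% and 29.7% in inPKI A, B and C, a difference of 1.49 points with an exact permutation p of 0.2 (0.45 adjusted). RAP1A made up 29.6%, 26.8% and 27.3% of the RAP1 pair in PKI A, B and C, against 29.3%, 27.2% and 29.9% in inPKI A, B and C, a difference of -0.949 points with an exact permutation p of 0.5 (0.5 adjusted). That difference was -1.8 points without PKI A, -1.74 without inPKI B, -0.398 without PKI B and -0.405 without inPKI C. With 3 libraries a group, this test cannot go below 0.1.

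**Figure D4:**
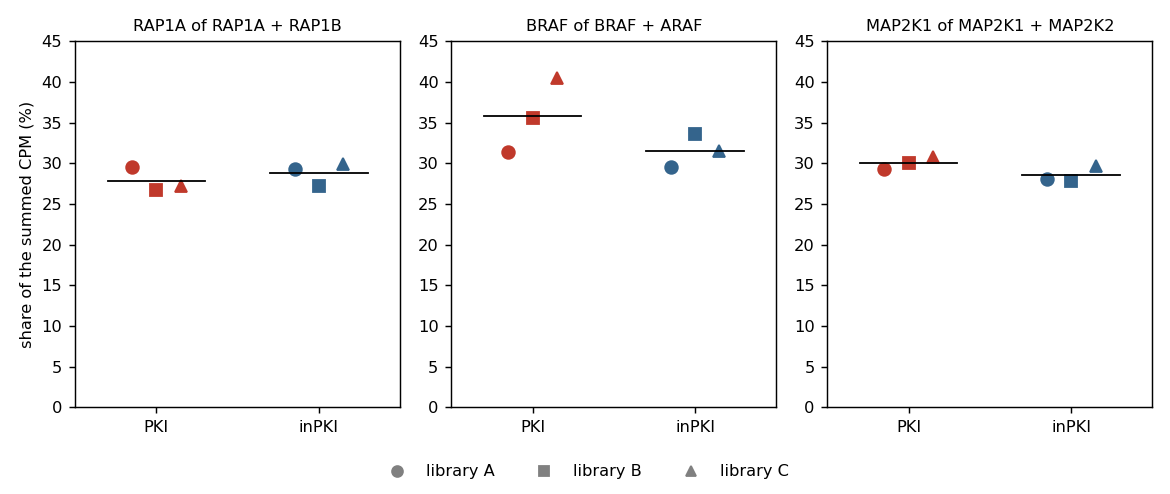
Share of RAP1A, BRAF and MAP2K1 in the summed CPM of their pair (vertical axis, percent, starting at 0), with the PKI libraries on the left and the inPKI libraries on the right of each panel. Symbols mark libraries A, B and C, and bars are group means. BRAF in PKI C, at 40.6%, is the highest share of its panel.

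PKI C was the lowest of the 6 libraries for RAP1A, ARAF, MAP2K2 and MAPK3 and the highest for BRAF and KSR1, so at an end in 6 of 8, beside 58.7% of all genes tested. All 3 PKI libraries deviated with transcript length. Over 3 nearly equal groups of all tested genes by longest transcript, the median deviation from the inPKI mean (log2) was -0.0453, 0.00275 and 0.0522 in PKI A for the shortest, middle and longest group. It was -0.0245, 0.0257 and 0.0622 in PKI B and -0.153, -0.0654 and 0.0454 in PKI C in the same order, and each inPKI library lay between -0.0112 and 0.0087 in every group. The median log2 change between PKI and inPKI was -0.0768, -0.0121 and 0.053 in the same order. ARAF and MAPK3, with longest transcripts of 2504 and 2567 bases, belonged to the shortest group, and BRAF and KSR1, with 9578 and 7237 bases, to the longest. With the length trend removed, the log2 changes of BRAF, KSR1, ARAF and MAPK3 kept their sign and lay closer to 0, at 0.0684, 0.059, -0.0578 and -0.035. The part of depth or RNA quality in them was not tested. Other cascade genes moved away from 0 with the length trend removed. RAP1B, whose longest transcript is 13438 bases, had a log2 change of -0.163. RAP1A, of 5024 bases and also in the longest group, went from -0.0768 to -0.096. MAP2K1, in the middle group, went from 0.0105 to 0.0235. MAP2K2, also in the middle group, moved toward 0, from -0.0928 to -0.0688.

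Around the 8 genes, lists of other regulators of RAP1 and RAS, counted over their tested genes, gave no call. Exchange factors that load RAP1 with GTP had 0 of 8 called and a median log2 change of 0.06, and the smallest p belonged to RAPGEF2, at 38.0 ± 1.33 CPM in PKI and 33.3 ± 1.67 CPM in inPKI with an adjusted p of 0.223. GTPase activating proteins that switch RAP1 off had 0 of 6 called and a median of 0.09, led by RAP1GAP2 at 12.7 ± 0.971 CPM in PKI and 10.3 ± 0.244 CPM in inPKI with an adjusted p of 0.198. RAP relatives and effectors had 0 of 9 called and a median of 0.03, led by AFDN, a junction scaffold that binds RAP1, at 166 ± 13.6 CPM in PKI and 145 ± 3.43 CPM in inPKI with an adjusted p of 0.212. With the length trend removed, the medians were 0.0229 for the exchange factors, 0.041 for the GTPase activating proteins and 0.0121 for the RAP relatives and effectors. For RAPGEF2, RAP1GAP2 and AFDN the lowest PKI library was higher than the highest inPKI library. The groups did not overlap in 19.7% of all genes tested. These genes were picked by their p in the same data, so the lack of overlap is no added support.

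RAS proteins and their regulators had 0 of 14 called and a median of 0.01. Their smallest p belonged to NF1, which encodes a GTPase activating protein for RAS. NF1 stood at 119, 107 and 119 CPM in PKI A, B and C, against 98.3, 93.9 and 102 CPM in inPKI A, B and C, with a log2 change of 0.23 and a limma adjusted p of 0.130. Its adjusted p was 0.0429 without PKI B, 0.0334 with sample weights and 0.0185 with DESeq2, and 0.518 with the length trend removed. Scaffolds and modulators of RAF, MEK and ERK had 0 of 19 called and a median log2 change of -0.0716, with 15 of 19 below 0. That median was -0.00238 without PKI C, -0.0255 with sample weights and -0.0387 with the length trend removed. Of the 19, 4 had an unadjusted p below 0.05, all lower in PKI, beside 6.16% of all genes tested in that direction. LAMTOR2, part of the complex that holds MEK1 at late endosomes, led these 19 at 34.2 ± 2.30 CPM in PKI and 38.7 ± 1.58 CPM in inPKI with an adjusted p of 0.263. Other lists had such genes higher in PKI, beside 7.53% of all genes tested. They were 1 of 8 RAP1 exchange factors, 2 of 6 RAP1 GTPase activating proteins and 2 of 9 RAP relatives and effectors. There were also 3 of 14 RAS proteins and their regulators and 4 of 11 transcripts that follow ERK activity. Of the kinases and factors that ERK phosphorylates it was 1 of 12. Only the parallel MAP2K and MAPK genes, with 1 of 15, had theirs lower in PKI as well.

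Downstream, kinases and factors that ERK phosphorylates had 0 of 12 called and a median of -0.0196, led by RPS6KA6, a ribosomal S6 kinase, at 19.7 ± 0.657 CPM in PKI and 16.9 ± 0.743 CPM in inPKI with an adjusted p of 0.223. Transcripts that follow ERK activity had 2 of 11 called, EGR1 and FOSL1, both higher in PKI, beside 0.0981% of all genes tested. The median of this list was 0.141, with 11 of 11 above 0, beside 6771 of the 14275 genes tested. The smallest of these changes was 0.00817, for SPRY2. DUSP6, also listed, was too low to be tested, at 0.604 ± 0.204 CPM in PKI and 0.574 ± 0.229 CPM in inPKI. With a filter of 5 CPM, which FOSL1 did not pass, the list median was 0.0881. Like the others, this list was chosen with earlier results of these data known, so its calls are not independent support. EGR1 stood at 28.4 ± 4.20 CPM in PKI and 14.3 ± 2.40 CPM in inPKI with a limma adjusted p of 0.00198, and FOSL1 at 4.92 ± 0.902 CPM in PKI and 2.23 ± 0.0454 CPM in inPKI with 0.0127. The FOSL1 call was lost without inPKI A (adjusted p = 0.0575) and without inPKI B (adjusted p = 0.0701), and both calls were lost in limma without a filter on low values (0.142 for EGR1 and 0.333 for FOSL1) and without a trend (0.16 and 0.0925). The parallel MAP2K and MAPK genes had 0 of 15 called and a median of -0.0124, led by MAP2K6, at 8.46 ± 0.440 CPM in PKI and 10.1 ± 0.800 CPM in inPKI with an adjusted p of 0.287. Over the alternatives the medians of 4 of these lists took both signs: RAP relatives and effectors (-0.00269 to 0.0432), RAS proteins and their regulators (-0.0146 to 0.0343), the ERK-phosphorylated list (-0.0446 to 0.0065) and the parallel genes (-0.0418 to 0.0391).

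**Figure D5:**
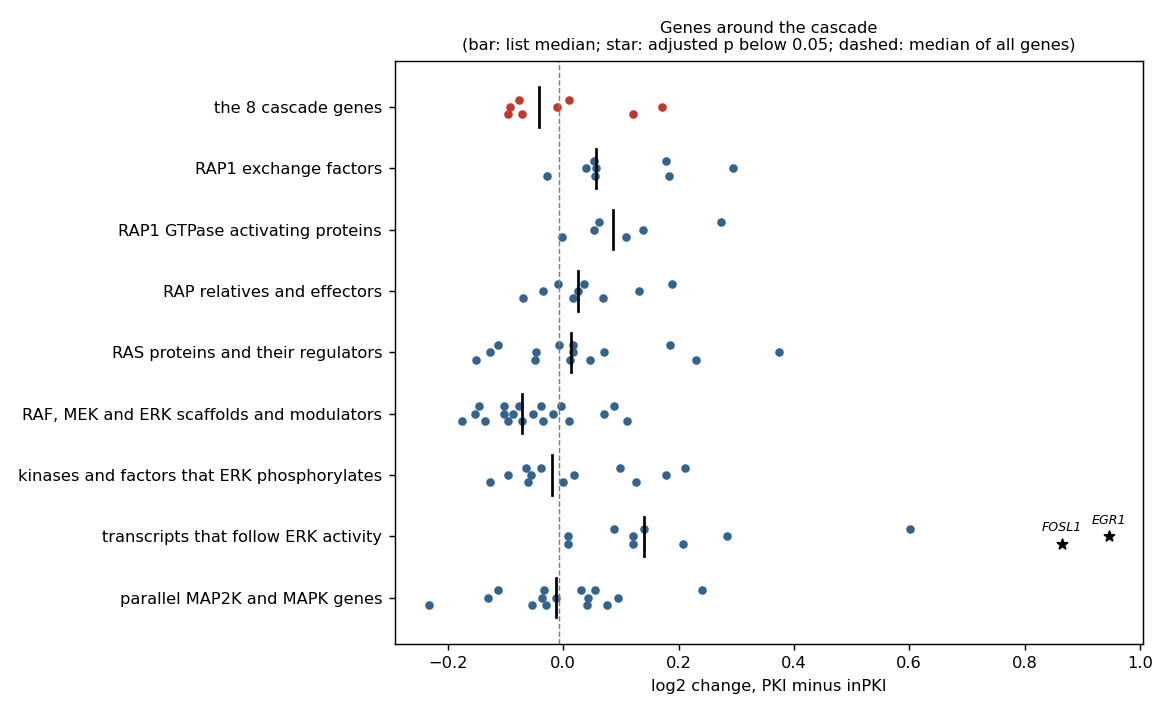
Log2 change, PKI minus inPKI (horizontal axis), of the tested genes in each list around the cascade (rows), with the 8 cascade genes in red at the top. Points are genes, upright bars are list medians, stars are genes at an adjusted p below 0.05, and the dashed line is the median of all genes tested. The 2 stars, EGR1 and FOSL1, are in the row of transcripts that follow ERK activity.

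The authors' deposited table also held all 8 cascade genes. Its log2 values, printed here with the sign turned to PKI over inPKI, were 0.19 for BRAF, 0.15 for KSR1 and -0.08 for ARAF in the authors' deposited table, with an adjusted p of 0.9999 for each of the 8. An adjusted p below 0.05 was given in the authors' deposited table for 14 genes, none of them among the 8. More than the 6 libraries used here entered the authors' deposited table, since 2069 genes at 0 in all 6 have a mean above 0 in it.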

How the data were processed

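RNA of 6 HEK293 libraries, 3 PKI and 3 inPKI by their titles, was prepared with a TruSeq mRNA kit, per the labels. The submitters' processing notes give the build hg19 and, in no stated role, DESeq2 1.20.0, RSEM 1.3.0, STAR 2.5.2b and cutadapt 1.14. The authors deposited CPM for 30960 genes, scaled with TMM as the table's name says. The authors' deposited comparison gives, per the file headers, a mean signal, a log2 fold change with its error, a Wald score, a signed fold change, a p-value and an adjusted p-value. All 30960 of its log2 values have the opposite sign to that fold change, and were turned.

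Every CPM value (100%, within 0.01 reads) was a whole multiple of 1 read, worth 0.0333 to 0.0437 CPM, so reads were recovered. They may be rounded RSEM estimates, which split reads between related genes. Intervals cover counting error only.

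Values were tested as log2(CPM + 1) with limma 3.58.1 (R 4.3.3; mean-variance trend, 2-sided), and recovered reads with edgeR 4.0.16 and DESeq2 1.42.0. The pseudocount understates changes of low genes. These fits were also run on simulated data, with results not reported here. The simulation held no length trend and no outlying library like PKI C. The smallest change put into it was larger than that of any of the 8 members. It therefore cannot show how the fits behave under these conditions. Shares were compared by exact permutation. No test was run on a list. The members and gene lists were chosen with earlier results of these data known. Named genes are the 8 members, PKIA, every called gene of a list and the gene with the smallest p in each. One list of other cascade kinases is not reported here. Others named are markers, overlapping genes and genes counted in a sentence.

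Alternatives were pseudocounts of 0.25 and 5, no filter, a filter of 5 CPM, median-ratio and equal-sum rescaling, a replicate block, no trend, sample weights, pseudogene reads added, and each library left out; removal of a transcript length trend (lowess, span 0.3) was added after seeing the data. Positions and lengths come from GENCODE 29 on GRCh38 by gene identifier (30772 of 30960 matched), not from the hg19 build in the notes. Within groups, counts of any 2 libraries differed by more than sampling noise. Chi-square per degree of freedom was 13.7 to 40.5 for pairs of PKI libraries and 2.31 to 3.92 for pairs of inPKI libraries. Limma without sample weights, edgeR and DESeq2 fit a common spread per gene to both groups. Figures were drawn with matplotlib 3.10.9.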

Additional observations from a re-analysis of the deposited data

How the results depend on the processing

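The count of 0 called among the 8 cascade genes held in all 19 alternatives. Of 152 values of their log2 changes, 148 kept their direction, 4 turned sign and 0 crossed the threshold. The changes of filter, the fit without a trend and the replicate block leave these log2 changes as they were, so they could not turn a sign. The 4 that turned belong to MAP2K1 and RAP1B, whose changes were the smallest before the length trend was removed. With 1 library left out, MAP2K1 ranged from -0.0136 to 0.0275 and RAP1B from -0.051 to 0.0239. With the length trend removed, RAP1B was at -0.163. BRAF stayed above 0 in every alternative, between 0.0684 and 0.224, with adjusted p between 0.185 and 0.736. The pair shares were recomputed only with 1 library left out or pseudogene reads added, not with the length trend removed. All 21 of these values shifted from the main difference by less than the SD between libraries. Leaving out 1 library of a group this small cannot shift a difference by more than that SD, so those values do not show stability. Of 171 list medians, 22 shifted by more than the SD of the list median between libraries.

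The count of all genes called, 18, was 4 with no filter, 11 with equal-sum rescaling, 4 without a trend, 144 with sample weights, 11 with edgeR, 199 with DESeq2 and 10 with the length trend removed, and 9 to 114 with 1 library left out (without inPKI B and without PKI B). Left out in turn, PKI A gave 37, PKI C 46 and inPKI A 11. The split was 14 higher and 4 lower, 10 and 1 with equal-sum rescaling, 108 and 36 with sample weights, and 115 and 84 with DESeq2. The causes were not tested.

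Whether the letters pair the libraries is not settled. The correlations of deviations were 0.0171, 0.0138 and 0.0283 for libraries of the same letter. For libraries of different letters they ran from -0.0224 to 0.0101, so all were small and the same-letter values were the highest. With the letter as a replicate block, 124 genes were called and 0 of the 8 cascade genes, BRAF having an adjusted p of 0.185. NF1 was the listed gene called under the block that limma without it did not call (0.0477). With 1 PKI or inPKI library left out, the fit assumes that the remaining groups share their spread. Depth limits KSR1 most, at 352 to 439 reads per library.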
